A study of Sus scrofa with 6 samples.

Results

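Cells keep gradients of ions, protons, metals and lipids across their membranes with ATP-driven pumps, and 43 genes of these pumps and their subunits were read on arrays of pig oocytes, taken either fresh or matured in culture. The members are all genes with a symbol made of ATP and a digit, without the mitochondrial ATP synthase genes named ATP5, 43 of 10867 genes with a symbol, and each was read by 1 probe of the 12258 on the array. Of these probes 4 list their symbol more than once, 1 of them with 2 gene identifiers, and 2 further probes that list other genes as well were left out. No filter on low values was used, so all 43 members were tested.

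Each of the 6 arrays held total RNA from a pool of 50 oocytes of pubertal crossbred Landrace gilts, with 3 pools before maturation, titled in vivo, and 3 after it. The matured pools were cultured as cumulus-oocyte complexes, oocytes inside their somatic cumulus cells, for 44 h at 38 °C under 5% CO2 in TCM-199 with serum albumin, cysteine, follicular fluid, hCG and eCG. Ovaries of both groups were collected at slaughter. Maturation and time in culture cannot be told apart, since the unmatured pools were not cultured. The series text also mentions a selection of oocytes by a BCB test into 2 groups, which the sample labels do not assign, and removal of cumulus cells before RNA extraction is not described in the labels.

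P-type pumps pass a phosphate from ATP to their own catalytic chain and change shape to carry sodium, potassium, protons, calcium or copper. P4 ATPases, the flippases, use the same cycle to move phospholipids from the outer to the cytosolic leaflet. The V-type proton pump is a rotary machine that acidifies endosomes, lysosomes and secretory vesicles, with a cytosolic V1 sector that splits ATP and a membrane V0 sector that carries protons. In oocytes the endoplasmic reticulum calcium pumps refill the store that is released as calcium waves at fertilisation.

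Values are log2 levels, and differences are after minus before maturation. The median of an array was 5.62 to 5.70. Within a group the arrays correlated across probes at 0.989 or more, and between groups at 0.965 to 0.983, where genes are not independent replicates. Of 15 oocyte markers 12 were measured, and their summed linear level was 23700 to 25600 before and 21400 to 22400 after maturation. KIT, ZP3 and ZP4 were called lower among them (-1.22, -0.70 and -0.40) and 0 were called higher, and the sign of ZP4 turns when ribosomal protein genes are held level. Of 18 cumulus and granulosa markers 12 were measured, with 8 called lower and 1 higher, and their summed level went from 5860 to 7840 before to 1730 to 1950 after. The 1 called higher was HSD3B1, which rose by 3.95 (limma adjusted p = 1.49e-05), so these markers did not move in 1 direction. The lowest of the cumulus and granulosa values was 3.71, and background was not assessed, so no marker can be said to be absent. In these pools fewer cumulus cells and less RNA per cell cannot be told apart, and the part of either in the differences below was not tested.

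Most pump genes did not pass the test. With limma and an adjusted p under 0.05 taken over all probes, 4 of 43 members fell (ATP8A1, ATP7A, ATP1B2 and ATP8B3) and 1 rose (ATP2A3). The background over all probes was 8.07% called lower, 3.21% called higher and 11.3% called in either direction, and the members' share in either direction was 11.6%. The members as a whole are therefore near the background. Their median difference was -0.0003, beside 0.08 over all probes, and 21 of 43 differences were positive, beside 65.4% over all probes. The groups did not overlap for 14 of 43 members, 7 in the lower and 7 in the higher direction, beside 36.1%, 14.4% and 21.7% of all probes.

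The direction of small differences depends on the scaling. When ribosomal protein genes were held level, the median over all probes went from 0.08 to 0.54, 33 members were called higher and 2 lower (ATP8A1 and ATP7A), beside 77.6% and 4.36% of all probes. Every difference moved by the same amount under that scaling, so differences relative to the other probes did not change. With the replicate number as a block 6 members were lower and 2 higher, beside 10.0% and 5.07% of all probes. Without replicate 1 after maturation only 1 member was called lower and 0 higher, beside 4.33% and 0.84% of all probes. Without replicate 2 after maturation 2 were lower and 0 higher, beside 4.45% and 0.971% of all probes. ATP2A3 was also not called without replicate 3 after or replicate 2 before maturation, and ATP4B was the 1 member called higher without replicate 3 after maturation.

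**Figure D1:**
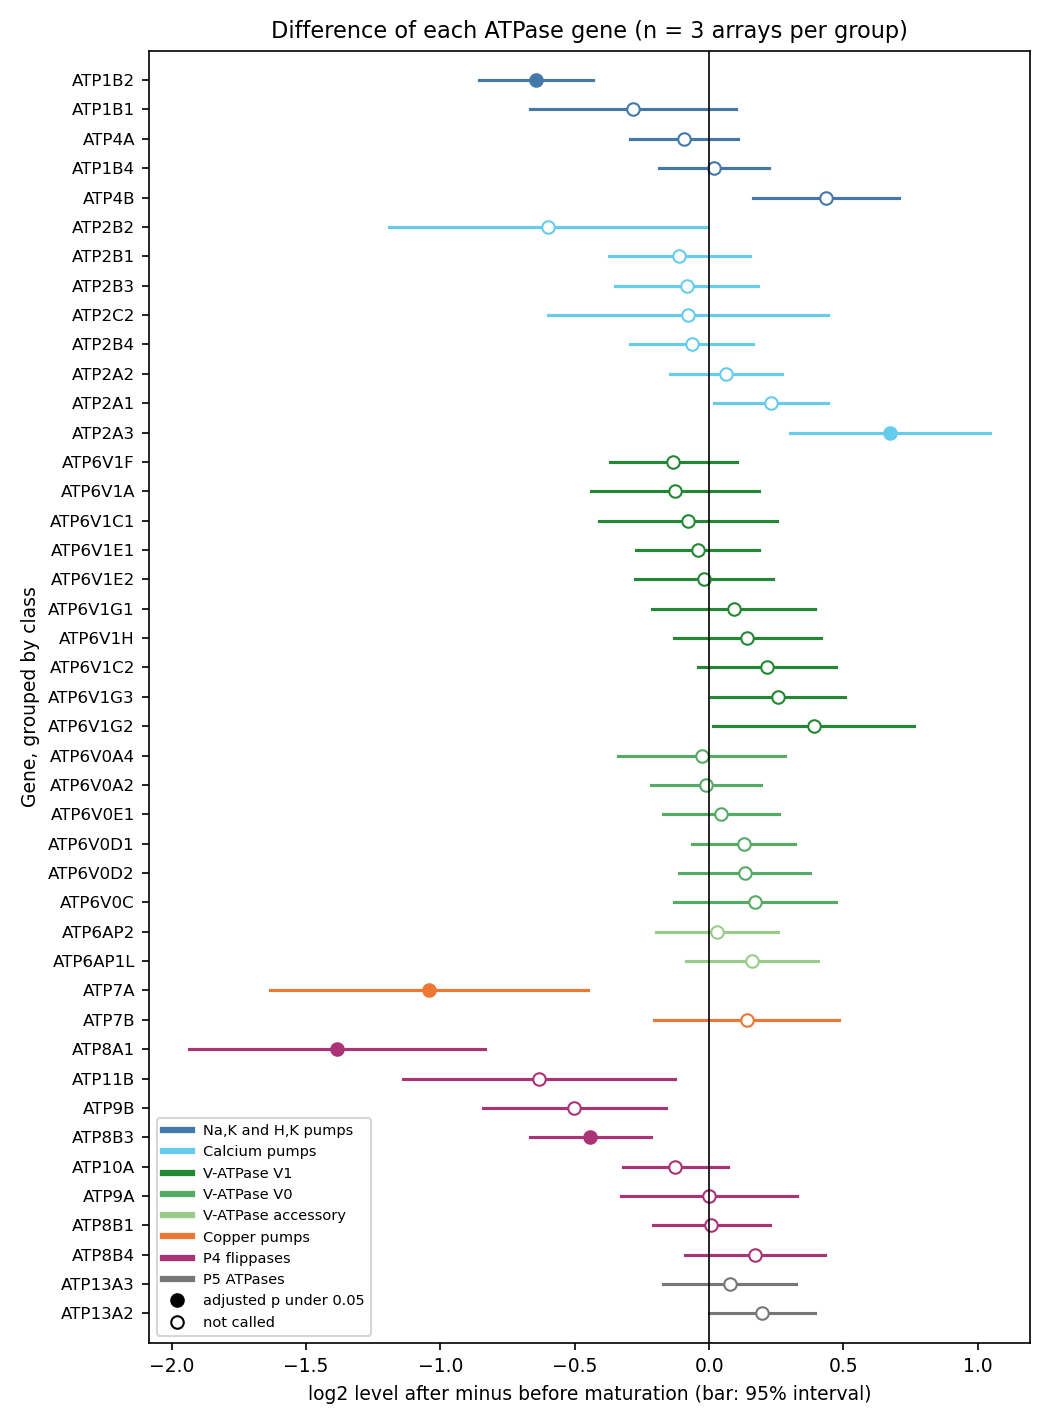
Log2 difference after minus before maturation (x axis) for each of the 43 pump genes (y axis, grouped by class), with 95% intervals from limma and n = 3 arrays per group. Filled points passed an adjusted p of 0.05. The V-type proton pump genes lie between -0.13 and 0.39, while ATP8A1 and ATP7A lie at -1.38 and -1.04.

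The lipid flippases held the largest difference among the pump genes. Of 8 measured P4 ATPase genes 2 fell, with 0 higher and 6 not called, beside 8.07% of all probes called lower. Of the 8 differences 6 were negative, ATP9A among them at -0.0003, beside 34.6% of all probes, and the median of the 8 was -0.28. With ribosomal protein genes held level 3 of 8 were negative, 4 were called higher and 1 lower (77.6% and 4.36% of all probes), and the median relative to all probes stayed at -0.36. Without replicate 1 after maturation 0 of 8 were called, beside 4.33% of all probes lower and 0.84% higher. Every array after maturation was lower than every array before it for 5 of the 8 genes, beside 14.4% of all probes. These 5 include ATP10A, with a difference of only -0.13 and values under the lower quartile of every array.

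ATP8A1 encodes a flippase that keeps phosphatidylserine on the cytosolic side of membranes. Its log2 levels were 6.44, 7.04 and 7.54 before maturation in replicates 1, 2 and 3, and 5.50, 5.72 and 5.66 after it. The groups did not overlap, and the arrays before maturation spread far more widely than those after it, with an SD of 0.55 against 0.11. The level fell by 1.38 on the log2 scale (SE 0.24, n = 3 per group, 2.61-fold, limma adjusted p = 0.00864). Without replicate 1 after maturation the difference was -1.32 and was not called (limma adjusted p = 0.0509), and without the highest array, replicate 3 before maturation, it was -1.12 and was called (limma adjusted p = 0.00797).

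ATP8B3, a P4 ATPase gene known from testis and sperm, was at 4.803, 4.61 and 4.55 before maturation and 4.25, 4.21 and 4.18 after it. The groups did not overlap, and its 3 values after maturation were below the arrays' lower quartiles, where the fold is imprecise. It fell by 0.44 (SE 0.098, 1.36-fold, limma adjusted p = 0.0252), and with ribosomal protein genes held level it was at 0.016 and not called. The call was also lost without any 1 of the arrays after maturation (adjusted p = 0.0791, 0.0838 and 0.0747 for replicates 1, 2 and 3) and without replicate 1 or 2 before it (adjusted p = 0.0539 and 0.0543 by limma).

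ATP11B and ATP9B had values in the same direction that did not pass the test. ATP11B, a flippase gene of endosomes and the trans-Golgi, was at 7.60, 7.74 and 8.51 in the unmatured pools and 7.18, 7.31 and 7.47 in the matured ones. Replicate 3 was the highest array in each group. Its difference was -0.63 (SE 0.22, limma adjusted p = 0.105) and was called with the replicate number as a block (adjusted p = 0.0252). ATP9B, whose product works in the Golgi, went from 6.79 ± 0.23 to 6.29 ± 0.21 (SD, n = 3), a difference of -0.50 (limma adjusted p = 0.0666) that was also called with that block (adjusted p = 0.0125). With the block 4 of 8 flippase genes were lower, beside 10.0% of all probes (8.07% without the block). Calls of ATP11B and ATP9B appeared as well without replicate 1 before (-0.81, limma adjusted p = 0.0471) and without replicate 3 after maturation (-0.62, limma adjusted p = 0.0497).

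The remaining flippase genes differed by little. ATP8B1, a flippase gene of bile canaliculi, was at 7.36 ± 0.11 before and 7.37 ± 0.06 after maturation, with a 95% interval of the difference from -0.21 to 0.23. ATP9A, a recycling endosome flippase gene, had a difference of -0.0003 with an interval from -0.33 to 0.33. ATP8B4 and ATP10A, the latter a flippase gene for phosphatidylcholine, had differences of 0.17 and -0.13, and ATP10A lay under the lower quartile of all 6 arrays. The intervals of ATP8B1 and ATP9A leave out a change of the size seen for ATP8A1.

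**Figure D2:**
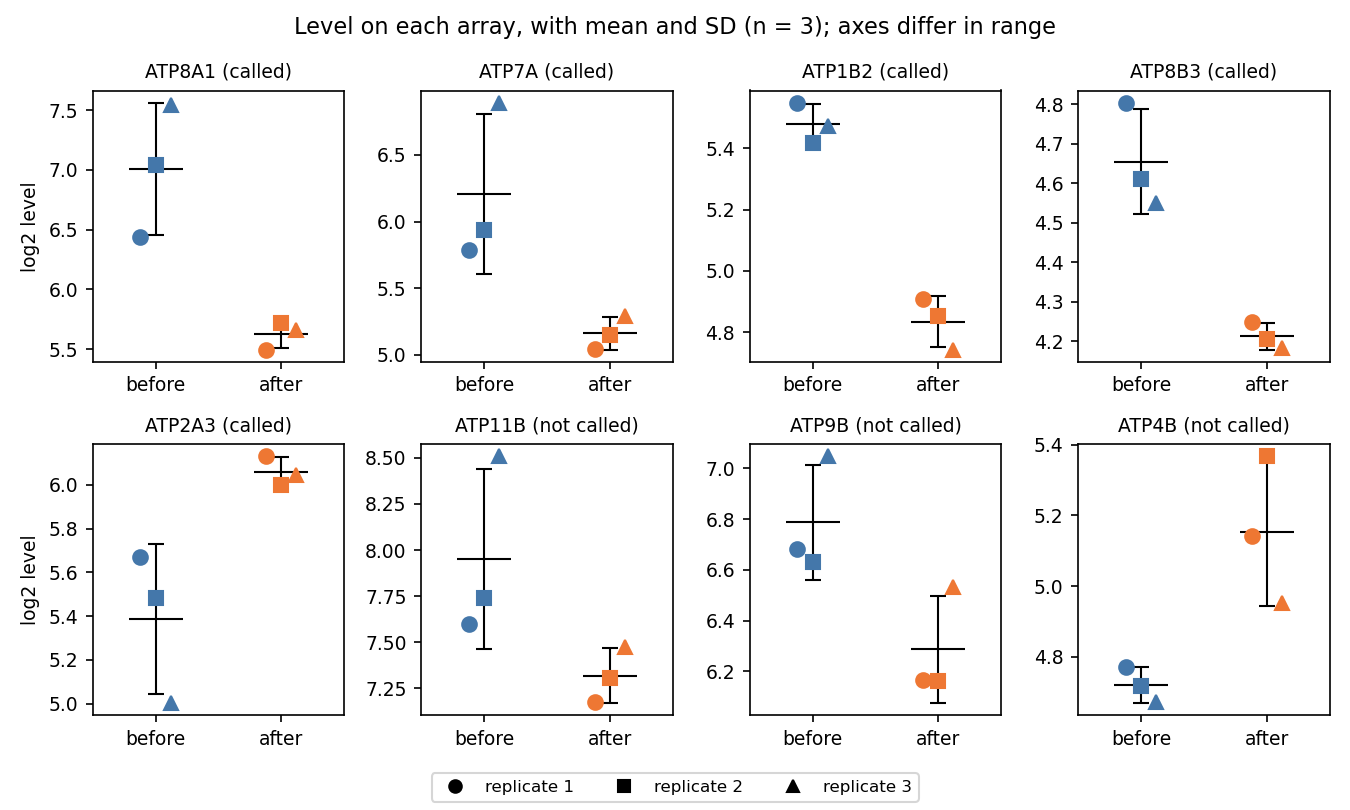
Log2 level on each array (y axis, a separate range in each panel) before and after maturation for the 5 called genes and for ATP11B, ATP9B and ATP4B, with the mean and SD of 3 arrays per group and the replicate shown by the symbol. The groups do not overlap in any of the 8 panels, and replicate 3 before maturation is the highest array for ATP8A1, ATP7A, ATP11B and ATP9B.

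The 2 copper pump genes had differences of opposite sign. ATP7A encodes the pump that loads copper onto enzymes in the trans-Golgi and exports it from most cells, and ATP7B is its counterpart in liver. The log2 level of ATP7A was 5.79, 5.93 and 6.89 in the unmatured pools and 5.05, 5.15 and 5.29 in the matured ones. The groups did not overlap, and replicate 3 before maturation was well above the other arrays. ATP7A fell by 1.04 (SE 0.26, 2.06-fold, limma adjusted p = 0.0377). Without replicate 3 before maturation the difference was -0.70 and was called (limma adjusted p = 0.00877), while the call was lost without replicate 1, 2 or 3 after maturation (limma adjusted p = 0.131, 0.120 and 0.0760).

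ATP7B was at 7.12 ± 0.23 before and 7.26 ± 0.21 after maturation, a difference of 0.14 with a 95% interval from -0.21 to 0.49 (limma adjusted p = 0.561). The within-array log2 ratio of ATP7A to ATP7B, which a common shift of an array leaves as it is, fell by 1.18 (SE 0.48, n = 3 per group). This pair was set side by side after its values were seen, so the ratio is a description with no test. The corresponding ratio of ATP8A1 to ATP8B1 fell by 1.39 (SE 0.28), where ATP8B1 itself differed by 0.0081. Ratios of ATP9B to ATP9A and of ATP1B2 to ATP1B1 fell by 0.50 (SE 0.28) and 0.36 (SE 0.26). These ratios are descriptions as well.

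Among the calcium pumps only the gene of 1 endoplasmic reticulum isoform passed the test. Of 8 measured genes 1 rose, with 0 lower and 7 not called. This share of 12.5% called was near the 11.3% of all probes. Their median was -0.07, beside 0.08 over all probes. The sign of the calcium pump median turned, to 0.39 with ribosomal protein genes held level, to 0.021 after a second quantile normalization and to 0.011 without replicate 1 before maturation. ATP2A3, an isoform gene known from blood and epithelial cells, was at log2 levels of 5.67, 5.48 and 5.004 in the unmatured pools and 6.13, 5.999 and 6.05 in the matured ones. There was no overlap between groups, and replicate 3 before maturation was the lowest array. ATP2A3 rose by 0.67 (SE 0.16, 1.59-fold, limma adjusted p = 0.0343). The call was lost without replicate 1, 2 or 3 after maturation (limma adjusted p = 0.123, 0.0958 and 0.0842) and without replicate 2 before it (limma adjusted p = 0.0627). Without replicate 3 before maturation its difference was 0.48 and was called (limma adjusted p = 0.0341).

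ATP2A2, the widely expressed pump gene of the endoplasmic reticulum, was at 10.03, 9.96 and 10.13 in the unmatured pools and 10.16, 10.10 and 10.05 in the matured ones. The arrays of the groups overlapped. Its difference of 0.06 had a 95% interval from -0.15 to 0.27 (limma adjusted p = 0.670), and it was called higher, at 0.52, with ribosomal protein genes held level. The within-array ratio of ATP2A3 to ATP2A2 rose by 0.61 (SE 0.24), given as a description. ATP2A1, the isoform gene of fast muscle, had 4.08, 4.17 and 4.004 before and 4.24, 4.33 and 4.38 after maturation. These groups did not overlap, but the difference of 0.23 did not pass the test (limma adjusted p = 0.145), and the gene lay under the lower quartile of all 3 arrays before maturation.

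The plasma membrane and Golgi calcium pump genes did not pass the test. ATP2B1, the widespread plasma membrane pump gene, was at 10.03, 9.785 and 10.05 in the unmatured pools and 9.997, 9.74 and 9.80 in the matured ones, and its groups overlapped. Its difference was -0.11 with an interval from -0.37 to 0.15. ATP2B3 and ATP2B4 differed by -0.08 and -0.06. ATP2B2, known from neurons and inner ear, differed by -0.60 with an interval from -1.19 to -0.0083 (limma adjusted p = 0.166), and its arrays before maturation spread with an SD of 0.59. Its groups overlapped, and replicate 1 before maturation (4.999) was the highest array. The gene lay under the lower quartile of all 3 arrays after maturation and of 1 before it, where the difference is imprecise. ATP2C2, a Golgi calcium and manganese pump gene, was at 8.51, 8.36 and 7.54 before and at 8.16, 7.99 and 8.03 after maturation. Replicate 3 before maturation was here the lowest of the 6 arrays, and the interval of the difference ran from -0.60 to 0.44.

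A beta subunit gene of the sodium-potassium pump fell. These beta subunits escort the catalytic subunit to the cell surface, and the pump sets the sodium and potassium gradients of the cell. Of 5 measured genes of this pump and of the related gastric proton-potassium pump 1 fell, with 0 higher and 4 not called. Over all probes 8.07% were called lower and 3.21% higher. The log2 level of ATP1B2 was 5.55, 5.42 and 5.47 in the unmatured pools and 4.91, 4.85 and 4.74 in the matured ones. Both groups were apart and narrow, with SDs of 0.07 and 0.08. ATP1B2 fell by 0.64 (SE 0.092, 1.56-fold, limma adjusted p = 0.00339), and it was the only member called without each of the 6 arrays in turn. With ribosomal protein genes held level it was at -0.19 and not called (limma adjusted p = 0.268).

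ATP1B1, the main beta subunit gene of many tissues, went from 8.05 ± 0.30 to 7.77 ± 0.20, and its difference of -0.28 did not pass the test (limma adjusted p = 0.292, interval from -0.67 to 0.0996). The difference of ATP1B1 was 0.17 with ribosomal protein genes held level. ATP4B, the beta subunit gene of the gastric pump, had 4.77, 4.72 and 4.67 before and 5.14, 5.37 and 4.95 after maturation, with no overlap. Its difference of 0.43 missed the threshold (SE 0.12, limma adjusted p = 0.0523) and was called with the replicate block (adjusted p = 0.0385), with a common median (0.49, limma adjusted p = 0.0322), with trend and robust set (adjusted p = 0.0462 by limma), without the dimmest 25% of probes (limma adjusted p = 0.0481) and without replicate 3 after maturation (0.53, limma adjusted p = 0.0378). ATP4A, the catalytic subunit gene of the same pump, differed by -0.09, and ATP1B4, a divergent family member known from muscle, by 0.018.

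No gene of the V-type proton pump passed the test. The 18 measured genes were 10 of the V1 sector, 6 of the V0 sector and 2 accessory. Limma called 0 higher and 0 lower, beside 3.21% and 8.07% of all probes. An unadjusted limma p under 0.05 was held by 2 of the 18, beside 3580 of all 12258 probes. The 18 differences lay between -0.13 and 0.39 with a median of 0.07, beside 0.08 over all probes. Their 95% intervals together ran from -0.44 to 0.76, so a 2-fold change lay outside the interval of each of the 18 genes on the deposited scale. With ribosomal protein genes held level 17 of 18 were called higher, beside 77.6% of all probes. In the other settings 0 of the tested genes were called.

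In the V1 sector ATP6V1A, the catalytic subunit gene, went from 7.28 ± 0.20 to 7.15 ± 0.19, a difference of -0.13 with an interval from -0.44 to 0.18. Genes of the stalk and regulatory subunits, ATP6V1C1, ATP6V1E1, ATP6V1F, ATP6V1G1 and ATP6V1H, had differences from -0.13 to 0.14. ATP6V1G2, a stalk isoform known from neurons, was at 5.13, 5.39 and 5.29 in the unmatured pools and 5.47, 6.03 and 5.47 in the matured ones. Replicate 2 after maturation was its highest array, and the groups did not overlap. The difference of 0.39 did not pass the test (SE 0.16, limma adjusted p = 0.158). ATP6V1G3, an isoform of kidney, had 3.85, 3.63 and 3.63 before and 3.88, 4.11 and 3.90 after maturation, again with no overlap (0.26, limma adjusted p = 0.161). ATP6V1G3 lay under the lower quartile of every array, as did the isoform genes ATP6V1C2 and ATP6V1E2.

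The V0 sector genes had differences from -0.03 to 0.17. ATP6V0C, whose product forms the proton-carrying ring, differed by 0.17 and ATP6V0D1, the gene of the widely expressed subunit that joins the ring to the stalk, by 0.13. ATP6V0D1 was at 9.64 ± 0.04 before and 9.77 ± 0.02 after maturation (SD, n = 3) without overlap, and was not called (limma adjusted p = 0.332). ATP6V0D2, its isoform known from osteoclasts and kidney, also differed by 0.13 and lay under the lower quartile of every array. The genes of the membrane arm, ATP6V0A2 and ATP6V0A4, differed by -0.01 and -0.03, and ATP6V0E1 by 0.04. ATP6AP2, the accessory protein gene also known as the prorenin receptor, had 10.00, 10.08 and 10.27 before and 10.11, 10.18 and 10.14 after maturation. Its groups overlapped, with a difference of 0.03 and an interval from -0.20 to 0.26. ATP6AP1L differed by 0.16.

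The P5 ATPase genes did not pass the test. ATP13A2, whose product exports polyamines from lysosomes, was at 7.21, 7.14 and 7.15 in the unmatured pools and 7.42, 7.31 and 7.35 in the matured ones. Without overlap of the groups, the difference was 0.20 (SE 0.086, limma adjusted p = 0.175). It was called after a second quantile normalization (0.34, limma adjusted p = 0.0337). ATP13A3, a related polyamine transporter gene, differed by 0.08.

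**Figure D3:**
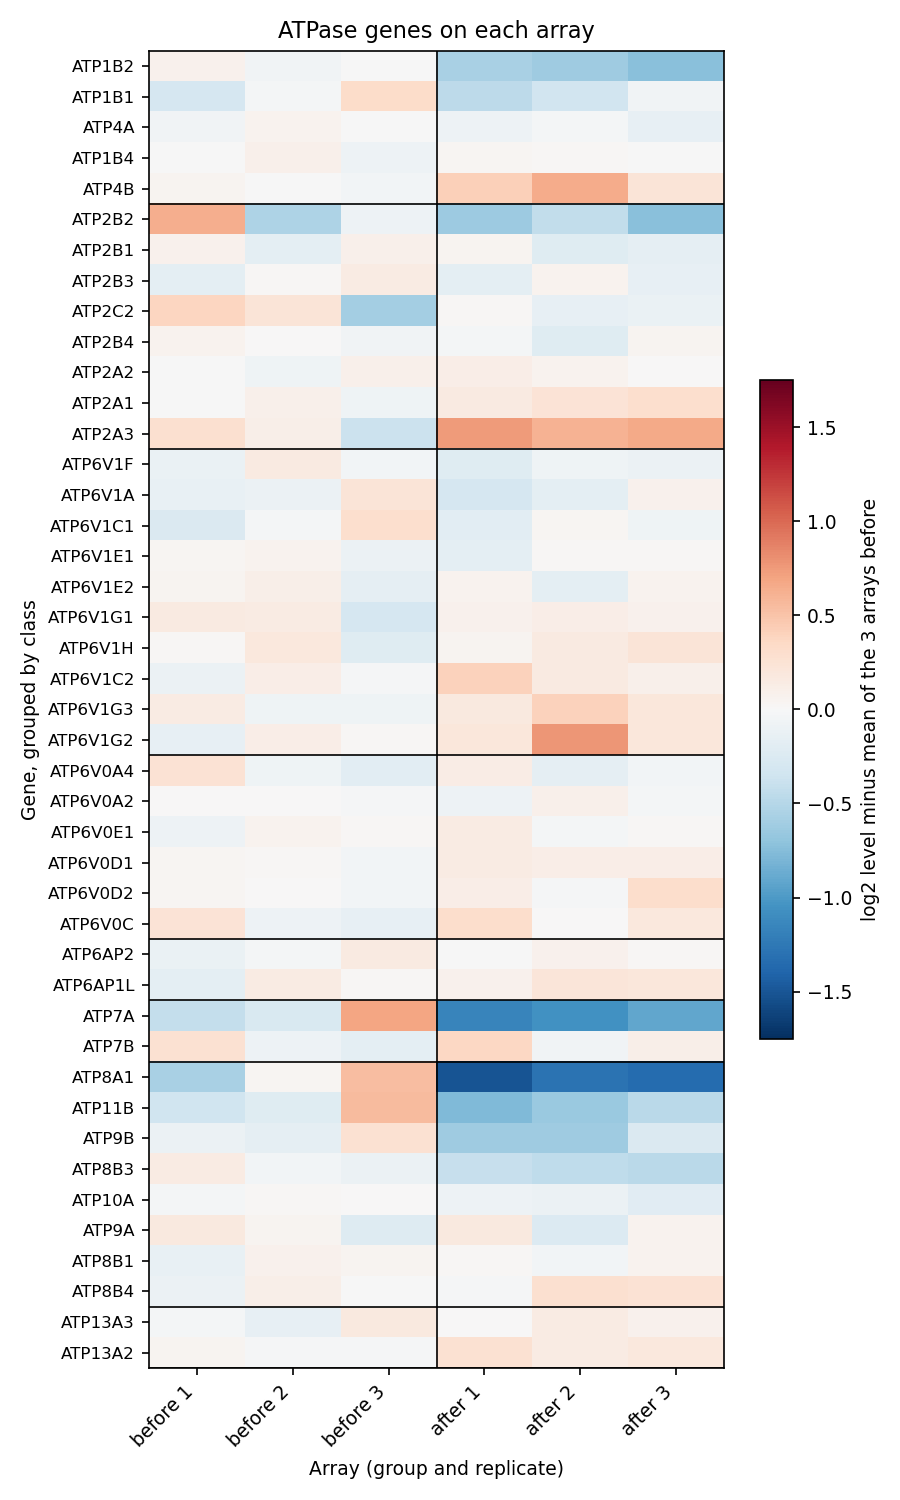
Log2 level of each of the 43 pump genes (rows, grouped by class and ordered by difference) on each of the 6 arrays (columns), minus the gene's mean over the 3 arrays before maturation. ATP8A1, ATP7A, ATP11B and ATP9B are low on the 3 arrays after maturation and highest on replicate 3 before it, while most V-type proton pump rows are pale, with ATP6V1G2 on replicate 2 after maturation an exception.

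Replicate 3 before maturation was the highest or lowest of its group for 31 of 43 members (72.1%), near the 72.8% of all probes. The SD was larger before than after maturation for 29 of 43 members, beside 57.0% of all probes. Of the 4 members called lower, ATP8A1 and ATP7A were highest on that array and ATP1B2 and ATP8B3 on replicate 1 before maturation. Over all probes called lower, replicate 3 before maturation was the highest array for 65.3% and replicate 1 before it for 22.1%. With both arrays numbered 3 left out, a setting chosen after the data were seen, 3 members were lower and 0 higher, beside 5.61% and 0.971% of all probes.

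Genes that work with the pumps but carry other names held more calls. Of 110 partner genes listed 59 were measured, with 12 lower, 3 higher and 44 not called, beside 8.07% and 3.21% of all probes, and their median difference was -0.01. With ribosomal protein genes held level these counts became 6 lower and 34 higher, beside 4.36% and 77.6% of all probes. Without replicate 1 after maturation 6 were lower and 2 higher, beside 4.33% and 0.84% of all probes. Without replicate 2 after it 7 were lower and 1 higher, beside 4.45% and 0.971% of all probes. The count of higher genes was also 1 without replicate 3 after maturation or replicate 3 before it, beside 1.66% and 1.35% of all probes.

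The lysosome list holds genes of proteins in compartments that the proton pump acidifies and of the transcription factors TFEB, TFE3 and MITF. Of its 14 measured genes 6 fell and 1 rose, beside 8.07% and 3.21% of all probes. HEXA, a hexosaminidase subunit gene, fell by 1.52 (SE 0.16, limma adjusted p = 0.0007), and SCARB2, a lysosomal membrane receptor gene, fell by 1.31 (SE 0.13, limma adjusted p = 0.000548). MITF, a transcription factor gene of the family that includes regulators of lysosomal genes, fell by 1.02, LAMP2, a lysosomal membrane protein gene, fell by 0.79 and CTSZ, a cathepsin gene, fell by 0.79. TFE3, a transcription factor gene of the MITF family, was the gene called higher (0.61, limma adjusted p = 0.0223), and CTSA the remaining one called lower (-0.76). TFE3 and CTSA stand outside the 5 smallest p-values of the list and were added after their values were seen. With ribosomal protein genes held level LAMP2, CTSZ and CTSA were not called. LAMP2 lost the call without replicate 1 after maturation (limma adjusted p = 0.0507), CTSA without replicate 1 or 2 after it (limma adjusted p = 0.0551 and 0.0599) and TFE3 without replicate 1, 2 or 3 after or replicate 3 before it (limma adjusted p = 0.0808, 0.0607, 0.0722 and 0.0581). LAMP1 (0.45) was called with the replicate block (adjusted p = 0.0298). Beside these decreases 8 of 12 cumulus and granulosa markers fell, and their part in the lysosome values was not tested.

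Of 12 measured partners of the proton pump 1 fell (8.33%), near the 8.07% of all probes called lower. OSTM1, the beta subunit gene of a lysosomal chloride exchanger, fell by 1.22 (SE 0.20, limma adjusted p = 0.00655). WDR7, a gene of the factor that assembles the pump, had a difference of -0.46 that was called with the replicate block (adjusted p = 0.0175). Of 13 calcium store partners 3 fell and 1 rose, beside 8.07% and 3.21% of all probes. ITPR2, a calcium release channel gene, fell by 0.85, and the chaperone genes CANX and CALR, whose products bind calcium in the store, fell by 0.50 and 0.36 (limma adjusted p = 0.0236, 0.0207 and 0.0317). SLN, which encodes sarcolipin, an inhibitor of the endoplasmic reticulum calcium pumps, rose by 0.52 (limma adjusted p = 0.0466), and its adjusted p was 0.0551 with the replicate block.

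These calcium store calls were sensitive to single arrays and to scaling. ITPR2 and CANX lost the call without any 1 of the arrays after maturation (limma adjusted p = 0.0678 to 0.0935 and 0.0592 to 0.0778), and CALR and SLN without most single arrays. CALR was not called without replicate 1, 2 or 3 after or replicate 2 or 3 before maturation (limma adjusted p = 0.0915, 0.104, 0.0745, 0.0777 and 0.0798), nor with a common median (limma adjusted p = 0.0511). SLN was not called without replicate 2 or 3 of either group (limma adjusted p = 0.135 and 0.120 after, 0.0879 and 0.117 before). With ribosomal protein genes held level CANX was at -0.044 and CALR at 0.094, and neither was called. After a second quantile normalization ITPR2 was not called (-0.71, limma adjusted p = 0.0519).

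The other partner lists held 1 call each. That was 20% of the sodium-potassium pump, 16.7% of the copper and 11.1% of the flippase and scramblase partners, beside 11.3% of all probes. Of 5 sodium-potassium pump partners NKAIN3, whose product interacts with the beta subunit of the pump, rose by 1.18 (SE 0.20, limma adjusted p = 0.00742). Of 6 copper genes COX17, a copper chaperone gene of mitochondria, fell by 1.11 (SE 0.12, limma adjusted p = 0.000927). Of 9 flippase and scramblase partners MON2, a gene of Golgi and endosome trafficking, fell by 0.77 (SE 0.19, limma adjusted p = 0.0376). MON2 was not called without any 1 of the arrays after maturation (limma adjusted p = 0.135, 0.123 and 0.0620), after a second quantile normalization (limma adjusted p = 0.0752) or with ribosomal protein genes held level (limma adjusted p = 0.0939).

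**Figure D4:**
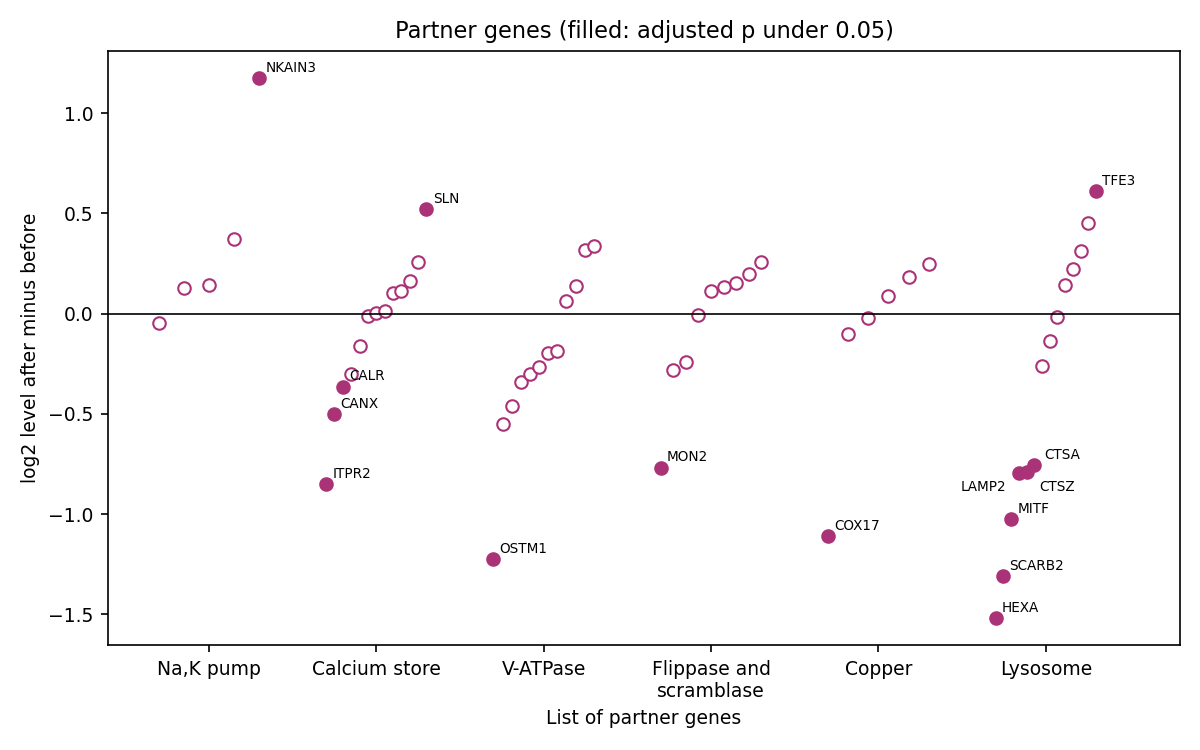
Log2 difference after minus before maturation (y axis) for each measured partner gene in 6 lists (x axis), with filled points at a limma adjusted p under 0.05 and their names beside them. Decreases reach -1.52 for HEXA in the lysosome list, and the largest increase is 1.18 for NKAIN3.

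Among the settings tried, only the 4 other scalings could turn the sign of a called pump gene. Leaving out arrays could not, since the groups of these 5 genes did not overlap, and the remaining settings left their differences unchanged. Of the 5, ATP8B3 alone turned, with ribosomal protein genes held level. The titles call the pools biological replicates without naming animals, so p-values reflect the spread between these pools. Limma moderates each probe's variance toward that of all probes. Its SEs, intervals and p-values therefore do not rest on a gene's own spread alone, while SEs of the within-array ratios do. For a single gene, exact permutation of 3 against 3 arrays has a smallest two-sided p of 0.10.

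**Figure D5:**
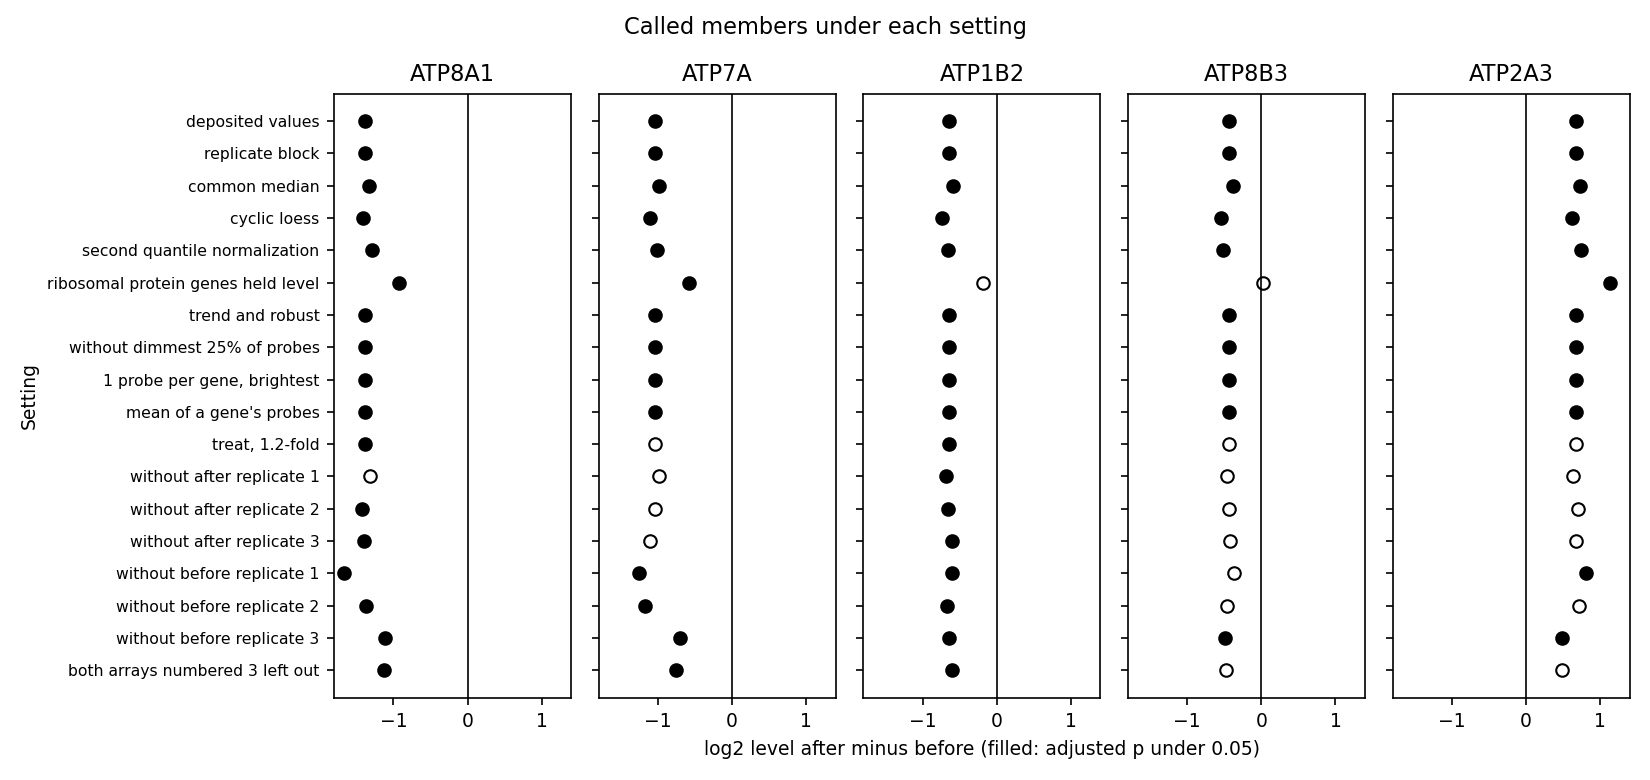
Log2 difference after minus before maturation (x axis) of the 5 called pump genes under each setting (y axis), with filled points at an adjusted p under 0.05. ATP1B2 stays filled without each array in turn, ATP8A1 is open only without replicate 1 after maturation, and ATP8B3 moves to 0.016 with ribosomal protein genes held level.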

How the data were processed

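The deposited table holds log2 expression values that the authors made with RMA, per the submitters' processing notes, with version and options not given in the sources used here. RMA as usually run corrects background, quantile-normalizes arrays and summarises probes. The log2 scale was inferred from the range of values. Total RNA (100 ng) was amplified in 2 rounds, per the labels' protocols.

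Probes were named from the platform annotation, in which 10922 of 12258 probes had 1 distinct symbol, and 39 of 43 members were found by gene identifier, under the same symbol, in the RefSeq table of Sscrofa11.1. Those without such a match were ATP2B2, ATP2B4, ATP6V0A4 and the called gene ATP8B3. Sequences were not analysed here. All probes were fitted with limma 3.58.1 in R 4.3.3 (lmFit, eBayes, two-sided), and p-values were adjusted by Benjamini-Hochberg across the whole array, with calls at 0.05. The fit was tested on simulated data. Members, lists, tests and alternatives were chosen with earlier results of these data known. Every member could be named. Array values were given for called members, the 2 largest non-overlapping differences per class and direction, and a few fixed genes, some of which are not reported here. ATP2C2 was added after its values were seen. Called partners were named up to 5 per list.

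Same-numbered arrays deviated together from their group means (correlations of 0.283, 0.120 and 0.142), so by this check the numbers pair the arrays, a hint from the data and not from the labels. Also tried were the replicate block, 4 other scalings (41 ribosomal protein probes held level among them), a filter on the dimmest 25% of probes, trend and robust variance, a test against a 1.2-fold change, other choices of probe and leaving out each array. Figures were drawn with Python 3.11.15, pandas 2.3.3 and matplotlib 3.10.9.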

Additional observations from a re-analysis of the deposited data

How the results depend on the processing

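Calls of 4 members lower and 1 higher changed most when ribosomal protein genes were held level (2 lower, 33 higher, member median 0.46, partner genes 6 lower and 34 higher), where 4.36% of all probes were lower and 77.6% higher. Under it ATP10A (0.33), ATP2B1 (0.35), ATP2B3 (0.37), ATP2B4 (0.39), ATP4A (0.37), ATP6V0A2 (0.45), ATP6V0A4 (0.43), ATP6V1A (0.33), ATP6V1C1 (0.38), ATP6V1E1 (0.42), ATP6V1E2 (0.44) and ATP9A (0.46) turned positive and were called, and ATP8B3 (0.016) and CALR (0.094) turned positive without a call. By its construction that scaling adds the same amount to every difference. Tested against a 1.2-fold change, 2 members were lower and 0 higher, with 5 partner genes lower and 1 higher, beside 3.86% and 0.408% of all probes. Members called higher were 2 with the replicate block, a common median, a second quantile normalization, trend and robust set, or without the dimmest 25% of probes. The shares of all tested probes called higher were, in that order, 5.07%, 7.46%, 4.86%, 3.5% and 4.07%. With the replicate block 6 members were lower and 2 higher, beside 10.0% and 5.07% of all probes (8.07% and 3.21% without it), and the members with a changed call were ATP11B, ATP9B and ATP4B. Leaving out single arrays gave 1 to 4 members lower, 0 to 1 higher, a member median from -0.018 to 0.038, and 6 to 12 partner genes lower and 1 to 3 higher. Over all probes it gave 4.33% to 8.26% lower and 0.84% to 3.54% higher. The cause of the other changes was not tested. With both arrays numbered 3 left out 0 members and 1 partner gene were higher, beside 0.971% of all probes. Taking 1 probe per gene or the mean of a gene's probes left these counts at 4 lower and 1 higher, and so did keeping only the 39 members that list their symbol once. Each member has 1 probe, and the 4 members that list their symbol more than once were not called. These unchanged counts were therefore all but fixed beforehand. With 3 arrays per group and no detection calls, differences of dim genes have limited precision.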
